A study of Drosophila melanogaster with 3 samples.

Results

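Hr78-GFP binding was described at the loci of 4 genes of the early ecdysone response, br, Eip74EF, Eip75B and Eip93F, which held 95 of the 4851 peaks in the list (1.96%). Peaks were assigned to a locus when their centre lay in a fixed window of FlyBase release 5, and the loci were chosen on genes whose peak numbers in these data were already known. The windows were X:1460000-1570000 for br, 3L:17540000-17620000 for Eip74EF, 3L:17940000-18070000 for Eip75B and 3R:17410000-17480000 for Eip93F. They held 23, 22, 37 and 13 peaks, respectively. Since the same values led to the choice of the loci, counts and scores are given as descriptions, without a test.

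The experiment was a chromatin immunoprecipitation followed by sequencing (ChIP-seq) on whole wandering third-instar larvae, with a rabbit polyclonal antibody (ab290) against green fluorescent protein (GFP). All 3 libraries, 2 from ChIP and 1 from input DNA, came from strain Hr78-GFP with the genotype PBac{y[+]-attP-3B}VK00037, which carries the Hr78 genomic coding region as a transgene. Sex was unknown, and the rearing protocol names y; bw cn sp flies. The labels do not give the state of the endogenous Hr78 gene, and no ChIP from untagged larvae was used here. A single peak list served for all libraries, so the spread between replicates cannot be given, and the sequencing depth is unknown. In whole larvae, strong binding in few cells and weak binding in many cells cannot be told apart.

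In Drosophila the steroid hormone 20-hydroxyecdysone binds a heterodimer of the nuclear receptors EcR and usp and switches on a small set of early genes, whose products are mostly transcription factors that regulate the late genes of metamorphosis. The wandering larva is the stage that precedes the pulse of hormone at pupariation. Hr78, an orphan nuclear receptor related to vertebrate TR2 and TR4, is needed for the ecdysone-triggered hierarchy at the onset of metamorphosis. br encodes the Broad-Complex family of BTB zinc finger proteins, Eip74EF encodes ETS-domain transcription factors, and Eip75B encodes nuclear receptors related to vertebrate Rev-erb that bind heme. Eip93F encodes a DNA-binding protein that acts later, in the prepupa and pupa, in the death of larval tissues and in adult differentiation. All 4 are long genes, and br, Eip74EF and Eip75B have several promoters.

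Hr78-GFP peaks were densely packed at all 4 loci. Per 100 kb there were 20.9 peaks at br, 27.5 at Eip74EF, 28.5 at Eip75B and 18.6 at Eip93F. The arm averages were 3.08 on X, 4.04 on 3L and 4.20 on 3R, so the ratios to the arm were 6.79, 6.81, 7.05 and 4.43 in that order. Peaks covered 13.3% of the br window, 19.3% of the Eip74EF window, 12.2% of the Eip75B window and 12.0% of the Eip93F window, against 1.85% of X, 2.16% of 3L and 2.29% of 3R. Eip74EF stood apart from the other loci in the deposited scores of its peaks rather than in their density, as described below. What the score measures is not stated.

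**Figure D1:**
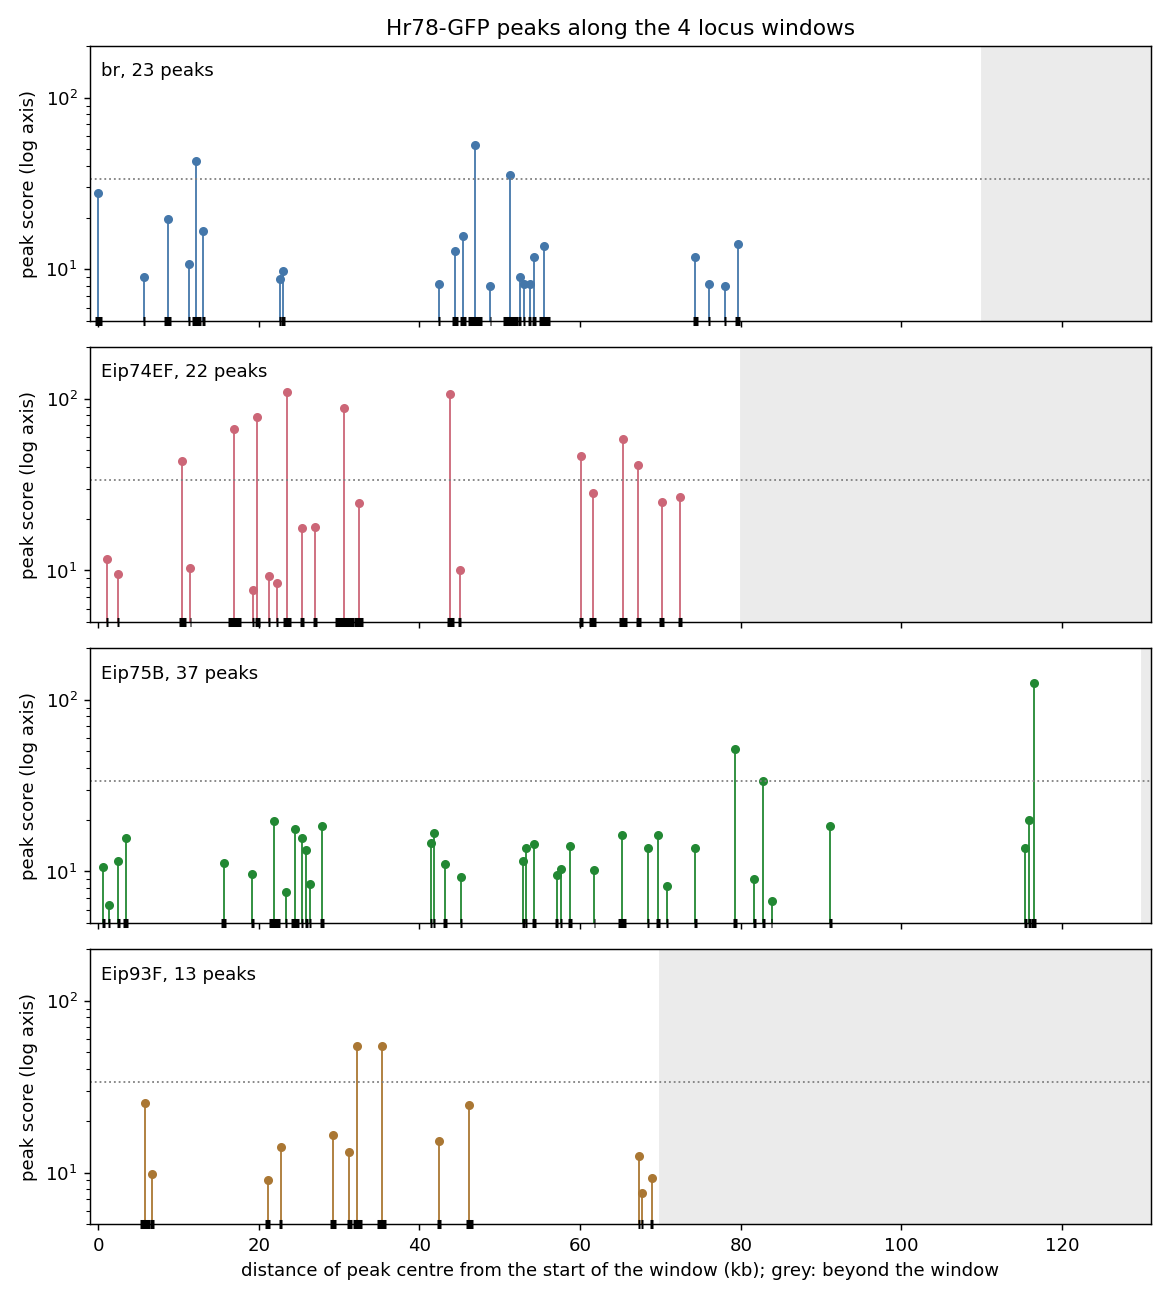
Each point is a Hr78-GFP peak, placed by the distance of its centre from the start of the locus window (kb, horizontal axis) and by its score (vertical log axis); black bars on the axis show peak widths, the dotted line marks a score of 33.59, and grey areas lie beyond a window. Eip74EF has 9 peaks on or above the line, while most of the 37 peaks of Eip75B lie below it.

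Each locus was ranked against all other windows of its length on its arm, taken at steps of 1 kb and not overlapping it. For Eip75B, 0% of 24141 windows of 130 kb on 3L held as many as 37 peaks, and 0 of 186 windows laid side by side did. Over the 5 large arms together, 0.0860% of 117475 windows reached that number. The median window held 4 peaks. The fullest of the others, 3L:17478001-17608001, held 32 peaks and lay over most of the Eip74EF window.

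For Eip74EF, 0.387% of 24291 windows of 80 kb on 3L held 22 peaks or more, and the median window held 2. Those windows fell into 2 stretches. In 3L:17887001-18063001, which lies over Eip75B, a window held up to 30 peaks, and in 3L:19844001-19931001 a window held up to 22. Without windows that touch Eip75B, the share was 0.0332%. The 2 loci of arm 3L were therefore among the densest stretches of the arm at both window lengths, each appearing in the comparison of the other.

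For br, 0.26% of 21529 windows of 110 kb on X held 23 peaks or more, with a median window of 2. With peaks separated by at most 500 bp merged, the share was 1.34%. The windows with 23 peaks or more also lay in 2 stretches, X:3530001-3691001 with up to 32 peaks in a window and X:12545001-12658001 with up to 23. Eip93F ranked lowest of the 4. On 3R, 2.13% of 27669 windows of 70 kb held 13 peaks or more, in 16 separate stretches, and the fullest, 3R:12032001-12102001, held 38.

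**Figure D2:**
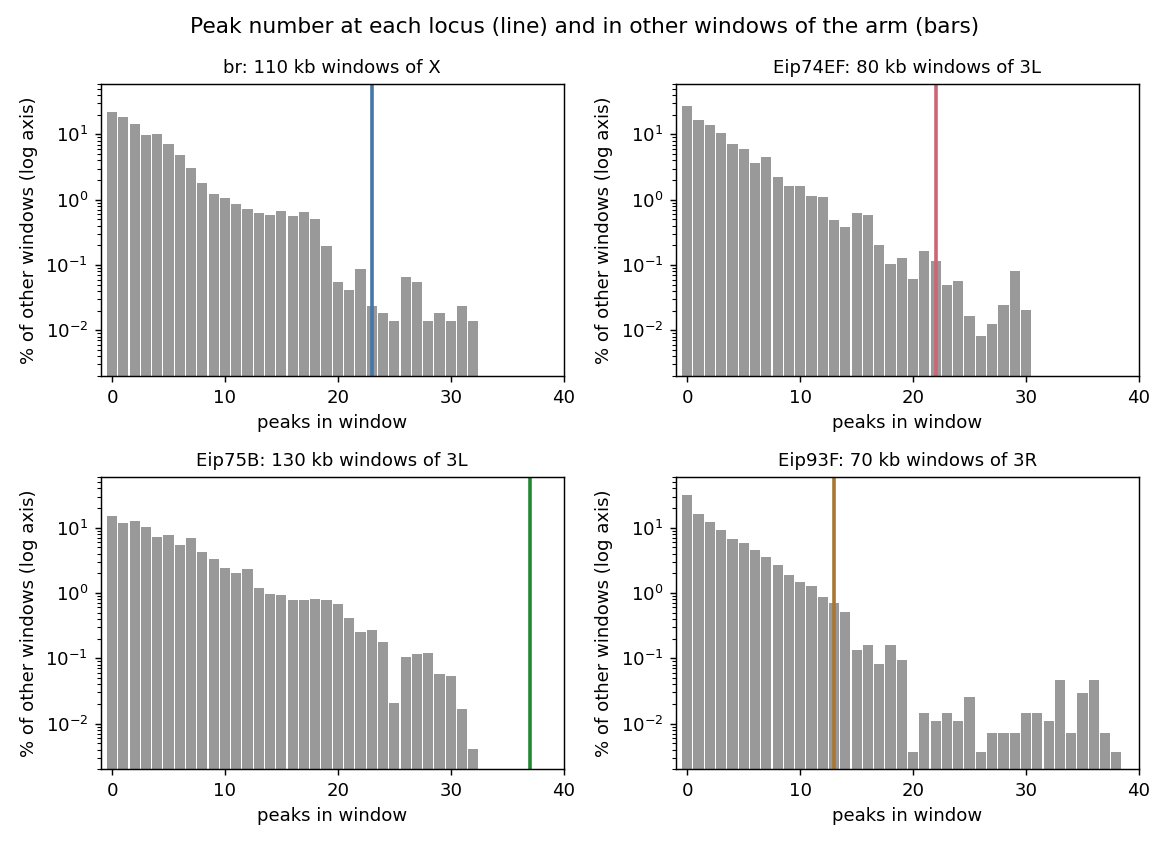
Bars show the percentage of other windows of the same length on the same arm (vertical log axis) by the number of peaks they hold (horizontal axis), and the coloured line is the locus. The line lies beyond all bars for Eip75B (37 peaks) and within the upper tail for br (23), Eip74EF (22) and Eip93F (13).

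All 4 loci held more peaks than the windows of equal length on either side. These held 3 and 1 peaks beside br, 12 and 6 beside Eip74EF, 12 and 6 beside Eip75B, and 2 and 5 beside Eip93F. Peaks continued beyond the edges of the Eip93F window, and those outside were not assigned to a gene. With edges 10 kb wider the Eip93F window held 20 peaks, against 22 at Eip74EF, 38 at Eip75B and 25 at br. Between the Eip74EF and Eip75B windows, 320 kb held 19 peaks, or 5.94 per 100 kb, with a median score of 12.46. The first br peak had its centre 0.012 kb inside the edge, with a score of 27.89, and the nearest peak outside scored 8.75 at 0.788 kb from the edge. Beyond the high end of the br window the next peak was 98.3 kb away. At Eip93F the nearest peak before the window lay 0.883 kb outside with a score of 18.21. The other windows had their nearest outer peak 2.43 kb (Eip75B) or 12.9 kb (Eip74EF) away.

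Scores, the value the authors gave each peak, separated Eip74EF from the other loci. At Eip74EF the scores ranged from 7.73 to 109.86 with a median of 25.81, against 13.71 on the rest of 3L, and 15 of its 22 peaks were above that value. At Eip75B the range was 6.42 to 124.48 with a median of 13.71, equal to that of the rest of 3L. The median was 14.03 at Eip93F, with a range of 7.6 to 54.37, against 13.4 on the rest of 3R. At br the range was 7.98 to 52.9 and the median 11.86, against 17.39 on the rest of X, and 5 of its 23 peaks exceeded the latter. Among other windows of the same length and arm with at least 5 peaks, 8.18% had a median score as high as Eip74EF, 36.4% as high as Eip93F, 53.0% as high as Eip75B and 91.1% as high as br. Thus br was dense in peaks of low score, and 43.5% of them scored under 10, against 18.5% on the rest of X. The other stretches of X with 23 peaks or more in a window had medians of 13.24 and 15.01, also below 17.39.

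**Figure D3:**
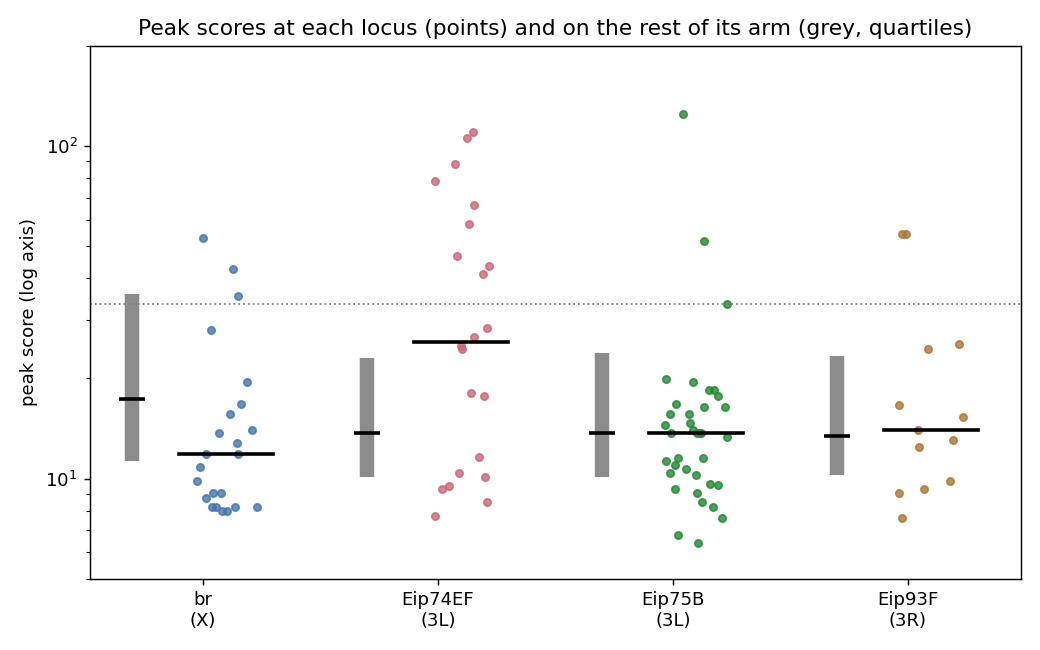
Points are the scores of single peaks at each locus (vertical log axis), black lines their medians, and grey bars the quartiles of the peaks on the rest of the same arm with the median as a black tick; the dotted line marks a score of 33.59. The Eip74EF median of 25.81 lies above the upper quartile of the rest of 3L (22.99), and the br median of 11.86 lies just above the lower quartile of the rest of X (11.26).

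Strong peaks, here the 1008 with a score of at least 33.59 (20.8% of the list, the 1000 highest with ties), were concentrated at Eip74EF. Of its 22 peaks 9 were strong (40.9%), against 16.2% on the rest of 3L. No other 80 kb window on 3L held more than 5 strong peaks, so 0% of the windows reached 9. Eip75B had 3 strong peaks of 37 (8.11%, against 17.1% on the rest of 3L), 1 of them exactly at 33.59, and 9.05% of its comparison windows had at least 3. br had 3 of 23 (13.0%, against 27.2% on the rest of X), a number reached by 10.6% of windows. Eip93F had 2 of 13 (15.4%, against 16.4% on the rest of 3R), reached by 10.4% of windows. In strong peaks br, Eip75B and Eip93F were therefore within the range of about 1 in 10 windows of their arms. The best of the 95 peaks ranked at 148 of 4851. None was among the 100 highest-scoring, a share of the list at which few of 95 peaks would be found.

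Eip74EF, whose ETS-domain products are early regulators in the hierarchy, carried strong peaks along most of the window. Its highest peak, 3L:17563021-17563945, scored 109.86 and ranked at 17 on the arm. It was followed by 3L:17583377-17584313 with 105.79, 3L:17569429-17571831 with 88.4, 3L:17559498-17560156 with 78.75 and 3L:17556146-17557758 with 66.25. The third of these was also the widest at 2403 bp. Taking peak-free stretches of more than 5 kb as boundaries, the locus split into 4 blocks. The main block, 3L:17550084-17573000, held 12 peaks with scores from 7.73 to 109.86, 5 of them strong. The second strong block, 3L:17599809-17612682, held 6 peaks, all between 24.99 and 58.44, with 3 strong. Between both lay the pair at 3L:17583377-17585113, in which a peak of 105.79 stood next to one of 10.11, followed by the longest peak-free stretch of 14.7 kb. Strong and weak peaks alternated over short distances: the closest pair, 541 bp apart, scored 7.73 and 78.75.

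The window of Eip75B, the nuclear receptor gene, showed many weak peaks over its low and middle parts and its highest peak near the high end. This peak, 3L:18056161-18056781, was 621 bp wide, scored 124.48 and ranked at 9 on 3L, the best arm rank among the members. It closed a group of 3 that began with scores of 13.71 and 19.94, and a peak-free stretch of 23.9 kb separated that group from the rest. The next highest, 3L:18019075-18019491 with 51.83 and 3L:18022618-18023007 with 33.59, lay in the largest block, 3L:17992765-18023927, with 16 peaks. Before that block, 17 peaks in 3 blocks scored at most 19.57. The widest peak, 3L:17961237-17962619, had 1383 bp and that score.

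br, the Broad-Complex gene, had most of its peaks in the low and middle parts of the window. A last block, X:1533987-1539928, held 4 peaks with scores of 7.98 to 14.03. The highest, X:1506023-1507838, scored 52.9 and was 1816 bp wide. The widest, X:1510395-1512246 with 1852 bp, scored 35.42. Both lay in the central block, X:1502315-1516214, with 11 peaks in 13.9 kb, whose other 9 peaks scored between 7.98 and 15.68. Within it 10 kb held 9 peaks, and the rest of X reached 9 in 2 other places. The densest 10 kb held 8 peaks at Eip75B, 7 at Eip74EF and 4 at Eip93F. As many were reached in 2, 8 and 81 other places of their arms. The second highest peak, X:1471651-1472789 with 42.6, belonged to a block of 5 peaks on the low side. The centre of the last peak lay 30.4 kb before the end of the window, and the longest peak-free stretch between peaks was 19.1 kb.

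Eip93F, the latest acting of the 4, had its strong peaks in the middle of the window. The peaks 3R:17441739-17442801 and 3R:17444744-17445836 had the same score of 54.37 and nearly the same width, 1063 and 1093 bp. They lay in a block of 4 peaks, 3R:17438906-17445836, with the others at 16.61 and 13.08. Next came 3R:17415180-17416438, the widest at 1259 bp, with 25.39, and 3R:17455768-17456664 with 24.58. A stretch of 20.5 kb without a peak separated the latter from 3 weak peaks of 7.6 to 12.46 at the high end of the window.

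Neighbouring peaks were closer at the loci than along the arms. Shorter distances go with a larger number of peaks in a window, so they are not a separate trait of the loci. The median distance between neighbouring centres was 1646.5 bp at br against 9292 bp on X, and 1925.5 bp at Eip74EF and 1288.5 bp at Eip75B against 5432 bp on 3L. At Eip93F it was 2517 bp against 5758 bp on 3R. The comparison with windows that held at least 5 peaks was narrower, but these windows were not matched to the loci in peak number. Of such windows, 9.99% on X had a median distance as short as br and 27.8% on 3L as short as Eip74EF. The shares were 7.06% on 3L for Eip75B and 47.8% on 3R for Eip93F. Distances of at most 1000 bp made up 27.3% at br and 30.6% at Eip75B, where 12.6% of those on X and 18.6% of those on 3L were as short. At Eip74EF only 1 of 21 distances (4.76%) was as short, so its density came without the close neighbours seen at br and Eip75B. At Eip93F it was 2 of 12 (16.7%), against 19.1% on 3R. With peaks separated by at most 500 bp merged, which removes short distances by construction, the median distance was 3504 bp at br and 2683 bp at Eip75B.

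**Figure D4:**
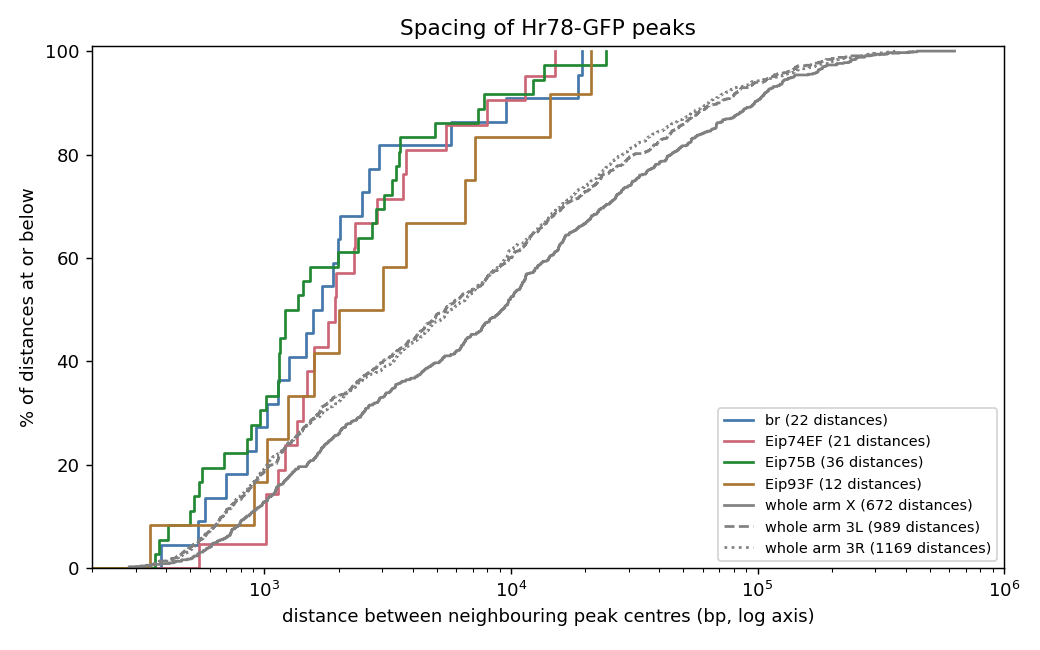
Cumulative percentage of distances between neighbouring peak centres (horizontal log axis, bp) at each locus (coloured) and on whole arms (grey). The loci reach 50% between 1288.5 and 2517 bp, the arms between 5432 and 9292 bp, and Eip74EF has the fewest distances of at most 1000 bp.

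Groups of 3 or more closely spaced peaks were found at br and Eip75B. Counting peaks of a window separated by at most 500 bp as tandem groups, br had 14 of 23 peaks in 4 groups. The largest had 6 peaks over 5820 bp (X:1510395-1516214). The share at br was 60.9%, against 27.5% of the peaks on the rest of X. Groups at the loci were counted inside the window only, those of the arms across window edges. The first br peak, within 500 bp of a peak outside the window, was therefore not counted as grouped. Eip75B had 17 of 37 peaks in 7 groups, the largest with 4 peaks over 2436 bp (3L:17963998-17966433). Its share was 45.9%, against 35.7% on the rest of 3L. Eip74EF had 6 of 22 (27.3%, against 36.3%) and Eip93F 6 of 13 (46.2%, against 38.5% on the rest of 3R), in pairs only. At br the closest pair was 380.5 bp apart, at Eip75B 358.5 bp and at Eip93F 342 bp. Groups of 3 or more held 12 of the 23 peaks at br (3 groups, 52.2%, against 11.5% on the rest of X) and 7 of the 37 at Eip75B (2 groups, 18.9%, against 14.9%). They held 0 peaks at Eip74EF (against 15.4%) and at Eip93F (against 15.3%), so the share at br was the one farthest from its arm. Close neighbours are more frequent where peaks are dense. The shares in other dense stretches of X were not computed, so grouping cannot be called particular to br.

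Peaks were wider than on the rest of the arm at Eip74EF and Eip93F, and narrower at br and Eip75B, by the median. The median width was 573.5 bp at Eip74EF and 603 bp at Eip93F, against 388.5 and 391 bp on the rest of their arms. It was 407 bp at br and 369 bp at Eip75B, against 455.5 and 393 bp. Among windows with at least 5 peaks, 16.7% had a median width as large as Eip74EF, 11.4% as Eip93F, 63.1% as br and 61.0% as Eip75B. Peaks of 1 kb or more numbered 4 of 23 at br (17.4%, against 14.8% on the rest of X) and 4 of 22 at Eip74EF (18.2%, against 11.3% on the rest of 3L). Eip75B had 2 of 37 (5.41%, against 11.6%) and Eip93F 3 of 13 (23.1%, against 10.5% on the rest of 3R). Across the peaks of a locus, Spearman's rho between width and score was 0.83 at br (n = 23), 0.83 at Eip74EF (n = 22), 0.61 at Eip75B (n = 37) and 0.85 at Eip93F (n = 13). On the rest of the arms it was 0.75 on X, 0.74 and 0.75 on 3L outside Eip74EF and Eip75B, and 0.73 on 3R, so the relation is one of the arms as well. Width and score come from the same reads and the same peak call. The strongest peak of Eip75B, with 621 bp, was narrower than the members next in score, at Eip74EF. These scored 109.86 and 105.79 and had 925 and 937 bp.

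Most scores of the loci also lay on a discrete series seen over the list. The series is −log10 of the chance that a Poisson count with a mean of 66.9 exceeds a given whole number. That mean was chosen to place the most scores of this list on the series (78.0%). The match is therefore no independent check of it. Within a tolerance of 0.01, 22 of 23 scores at br matched it (95.7%, against 94.6% on the rest of X), as did 16 of 22 at Eip74EF (72.7%, against 76.2%), 29 of 37 at Eip75B (78.4%, against 76.1%) and 9 of 13 at Eip93F (69.2%, against 75.9%). The shares at the loci were thus close to those of their arms. The meaning of the score is not stated in the labels or the list. Read on this series, the count is uncertain by 1. The highest peaks then corresponded to pile-ups of 5.10 times the fitted mean at Eip75B, 4.78 times at Eip74EF and 3.39 times at br. The peaks that scored 54.37 at Eip93F were off the series, so no such ratio is given for them.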

How the data were processed

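The authors deposited 1 list of peaks with a score per peak, in FlyBase release 5 coordinates, per the file headers. Its source column names MACS, and the submitters' processing notes name BDGP5, MACS2, BWA and 2 CASAVA versions (1.7.0.2, 1.7.0.3), whose roles are not stated. Neither the labels nor the list state what the deposited score measures, the threshold or any pooling of replicates. The score served to rank and describe peaks within the list. The loci and their windows were chosen with earlier results of these data known. Comparison windows started every 1 kb up to the last peak end of the arm, and medians needed at least 5 peaks. Blocks, tandem groups and the strong class were defined after the values were seen. Named peaks were the 5 highest-scoring, the widest and the closest pair of each locus, with its longest peak-free stretch; other positions were chosen after their values were seen. The annotation at hand is of release 6, so positions within genes, other ecdysone genes and sequences were not analysed here. No test was made. Code was tested on simulated data. Python 3.11.15, numpy 2.4.6, scipy 1.17.1 and pandas 2.3.3 were used.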

Additional observations from a re-analysis of the deposited data

How the results depend on the processing

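Of 132 alternatives, 95 kept their value within the limits set (1.5 times for peak numbers, quartiles for medians, an exact 95% interval over windows laid side by side for shares). Keeping the 2456 peaks with a score of at least 14.36 (the list median) lowered the number of peaks by construction. It left 7 at br, 15 at Eip74EF, 15 at Eip75B and 6 at Eip93F. The strong peaks alone left 3 at br, 9 at Eip74EF, 3 at Eip75B and 2 at Eip93F. With the 2456 peaks, the share of other windows with at least as many became 5.495% for br and 0% for Eip74EF. For Eip75B it became 0.3562%, in place of 0%, and for Eip93F 2.479%. With strong peaks alone it became 10.61% for br, 0% for Eip74EF, 9.047% for Eip75B and 10.35% for Eip93F. The ranks of br, Eip75B and Eip93F were thus lower when strong peaks alone were counted. Merging peaks within 500 bp left 12 intervals at br, with a share of 1.338% in place of 0.26%, inside the interval. Eip93F depended on the window edges: it held 20 peaks (0.4419% of windows) with edges 10 kb wider and 8 (5.381%) with edges 10 kb narrower. Counting any overlap, windows laid side by side, windows of 5 arms and windows outside all 4 loci moved no count or share beyond these limits, which are wide for small shares (Eip74EF 0.03322% outside all 4 loci, Eip75B 0.08598% over 5 arms, br 0.6173% over 5 arms). No paired analysis was possible because there is 1 list for all libraries, and for the same reason no replicate could be left out. The unknown depth limits how far weak peaks can be read.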
